A study of Drosophila melanogaster with 4 samples.

Results

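The cuticle protein genes of *Drosophila melanogaster* were taken as all genes of the deposited table whose symbol begins with Cpr and a digit or with Twdl. This gave 95 of 17103 genes, 70 of the Cpr family and 25 of the Tweedle (Twdl) family, and Cpr itself, which encodes cytochrome P450 reductase, was left out. RNA was taken from gonads of stage 17 embryos aged 18 to 22 h and kept at 25 °C. Phf7 mutant gonads carried the Phf7[DN18] allele with vas-GFP (2 samples, labelled as replicates), and control gonads carried vas-GFP alone (2 samples). The vas-GFP transgene, which labels germ cells, was therefore present in both genotypes. Gonads were released by mechanical disruption and sorted by FACS for GFP, mostly as whole gonads, so each sample held germ cells and somatic cells of both sexes. Phf7 encodes a chromatin reader needed for male germline identity, and the samples were compared to find genes that depend on it in the embryonic germline.

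Insect cuticle is an extracellular layer of chitin fibres embedded in structural proteins, secreted by the epidermis, the tracheae and the foregut and hindgut. Cpr proteins carry the Rebers and Riddiford sequence that binds chitin, and Tweedle proteins form a second structural family, known for mutations of TwdlD that make the larval body short and wide. The first larval cuticle is laid down late in embryogenesis, around the age of these samples, and neither germ cells nor the somatic cells of the gonad are known to secrete one.

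Reads per library, which the deposited means of 4 libraries contain, were recovered for each gene with a mean normalized count up to 1000, and the libraries are called mutant a, mutant b, control a and control b. A normalized count is the number of reads divided by the size factor of its library (1.13 and 1.12 in the mutants, 0.984 and 0.823 in the controls). Recovered genes held 2130832 and 2051338 reads in the mutants and 1842411 and 1536698 reads in the controls, and all cuticle protein genes were among them or at 0. Phf7 itself had 9 and 44 reads in the mutants against 749 and 495 reads in the controls, the direction that the labels give. The libraries of 1 genotype differed in the RNA level of tissue markers. Summed over 13 of 14 muscle markers (all but Msp300, whose mean is over 1000), normalized counts were 4844 and 1231 in mutants a and b. They were 1032 and 3298 in controls a and b, so that mutant a and control b stood apart from the other libraries. In bulk samples such as these, fewer cells of a type and less RNA per cell cannot be told apart. With 2 libraries per genotype an exact permutation test for a single gene cannot give a 2-sided p under 0.333, and the p-values below rest on limma, which borrows the spread between libraries from all genes.

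Cuticle protein genes were weakly expressed in the sorted gonads. Reads were found for 65 of the 95 genes, 49 of 70 Cpr and 16 of 25 Twdl genes, with a median mean normalized count of 5.45 and a highest mean of 172 for Cpr67Fb. Added together, the 95 genes made up 0.00901% of the mean total of a library. The summed normalized count was 681 in mutant a and 344 in mutant b, against 749 in control a and 2077 in control b. Control b alone therefore held 53.9% of the summed level of the family, and the other control lay close to mutant a. The mutant sums lay below the control sums, but without Cpr67Fb the totals were 648 and 314 in the mutants and 517 and 1681 in the controls, and the genotypes overlapped. The number of family members with at least 1 read differed less than the sums, with 49 and 39 in the mutants and 49 and 47 in the controls.

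**Figure D1:**
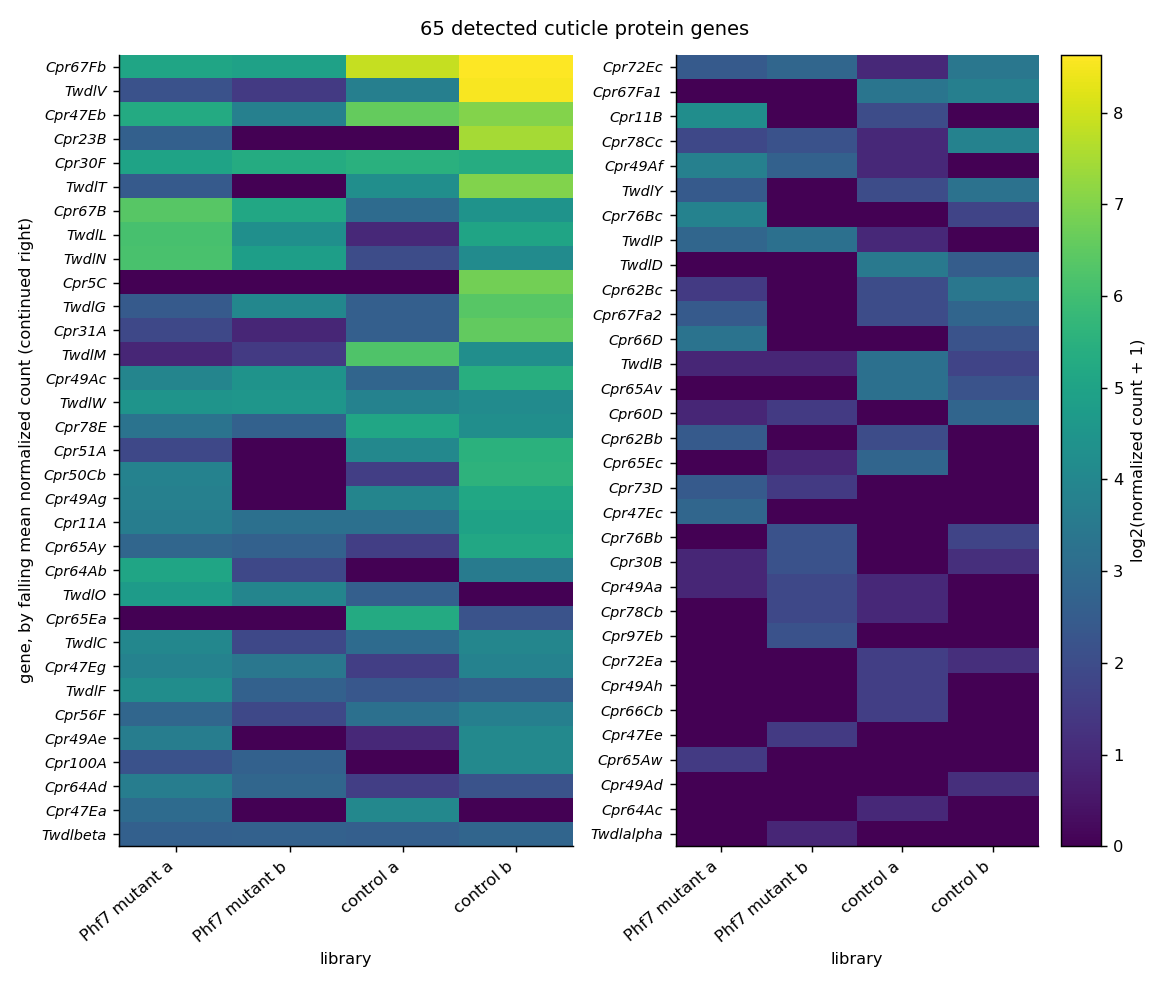
Level of the 65 detected cuticle protein genes in the 4 libraries, Phf7 mutant a and b and control a and b from left to right in each panel. Colour gives log2(normalized count + 1), and genes run from the highest mean, 172 for Cpr67Fb, downwards and then on to the right-hand panel. The bright cells lie mostly in the control b column, which held 53.9% of the summed level.

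Cpr67Fb, at 3L:10894173-10894693 of BDGP6.54, encodes a Cpr family protein and had the highest level in the family. It had 32.8 and 29.4 normalized counts in mutants a and b against 232 and 396 in controls a and b. Both mutant libraries lay far below both controls, and the ratio between the libraries of 1 genotype, each count + 1, was no more than 1.71. The mean was 31.1 ± 2.4 in the mutants and 314 ± 116 in the controls (SD, n = 2 each), a level 10.1-fold lower in the mutants. On the log2(normalized count + 1) scale the difference was -3.25 with an SE of 0.38 (limma, Benjamini-Hochberg adjusted p = 0.415 over 7653 genes), which ranked 24 by p among all genes tested but did not pass. An antisense RNA gene, asRNA:CR45171, overlaps Cpr67Fb on the opposite strand. Its mean normalized count was 6.83, and how reads were divided between the 2 genes is uncertain because the strand setting of the counting is not given in the sources used here.

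The other 2 genes of the Cpr67F group lie next to Cpr67Fb, the 3 genes together spanning 3L:10889990-10894693. Cpr67Fa1 had 0 reads in both mutants and 9 and 10 reads in controls a and b, a level at least 7.99-fold lower against a floor of 3 reads over the 2 mutant libraries. Cpr67Fa2 had 5 and 0 reads in the mutants and 3 and 5 reads in the controls, so its libraries overlapped. Cpr67Fa1 and Cpr67Fa2 are close copies, and the reads of each are uncertain. The group as a whole held 37.2 and 29.4 normalized counts in mutants a and b and 244 and 414 in controls a and b. The floor covers counting error only, here and wherever a bound is given.

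Of the 16 Cpr genes with a mean of at least 10, 8 had both mutant libraries below both controls, beside 17.5% of all genes tested. These were Cpr67Fb and 7 others. Among the 7, Cpr31A, Cpr49Ag, Cpr51A, Cpr65Ea and Cpr78E reached that mean through the reads of the controls only. Cpr47Eb, Cpr51A, Cpr78E and Cpr65Ea, all of them structural proteins of the Cpr family, are described here, Cpr31A and Cpr30F further on, and Cpr49Ag had 12.4 and 0 normalized counts in the mutants against 14.2 and 34.0 in the controls. Cpr47Eb, on arm 2R, had 38.1 and 12.5 normalized counts in the mutants against 94.5 and 129 in the controls. This was 4.42-fold lower by the means, with a log2 difference of -2.28 ± 0.63 (SE, limma, adjusted p = 0.766). Cpr78E, at 3L:21666452-21666980, had 8.86 and 5.35 normalized counts in the mutants against 33.5 and 18.2 in the controls. Its log2 difference was -1.70 ± 0.46 (limma, adjusted p = 0.742). Here control a held the highest value, unlike the family sum.

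Cpr51A, also on 2R, had 2.66 and 0 normalized counts in the mutants against 15.2 and 45.0 in the controls (log2 difference -3.84 ± 0.91, limma, adjusted p = 0.688). It overlaps CG30197 on the opposite strand, which had 634 and 79 reads in the mutants and 7 and 55 in the controls, an order among libraries unlike that of Cpr51A. Cpr65Ea, at 3L:7086003-7086608, had no read in either mutant and 37.6 and 3.64 normalized counts in controls a and b. That is a level at least 15.5-fold lower, and control a carried nearly all of it (limma, adjusted p = 0.806). Cpr65Ec, its neighbour, had 1 read in mutant b and 6 reads in control a, and Cpr65Eb had none.

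The Tweedle genes included members on both sides within 1 gene cluster. On 3R, 12 Twdl genes lie within 26619118-26641054, and reads were found for 7 of them. TwdlM, the first in the cluster (3R:26619118-26620224), had 0.886 and 1.78 normalized counts in the mutants against 75.2 and 18.2 in the controls, 35.0-fold lower by the means (log2 difference -4.06 ± 0.79, limma, adjusted p = 0.596). TwdlO, further along (3R:26625932-26626738), had 25.7 and 14.3 normalized counts in the mutants against 5.08 and 0 in the controls. Its level was thus 7.86-fold higher in the mutants, with a log2 difference of 3.03 ± 1.02 (limma, adjusted p = 0.832). TwdlN (3R:26631869-26632956) stood at 70.0 and 27.6 normalized counts in the mutants against 3.05 and 17.0 in the controls (log2 difference 2.40 ± 0.95, limma, adjusted p = 0.850). Thus both mutants lay below both controls for TwdlM and above both controls for TwdlO and TwdlN.

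TwdlL, which lies between TwdlM and TwdlO (3R:26624587-26625652), had 69.1 and 18.7 normalized counts in the mutants and 1.02 and 31.6 in the controls, so the genotypes overlapped. TwdlP had 7 and 9 reads in the mutants against 1 and 0 in the controls, on the side of TwdlO and TwdlN. TwdlB, with 1 read in each mutant against 8 and 2 in the controls, and TwdlD, with 0 in both mutants against 10 and 4 reads in the controls, were on the side of TwdlM. TwdlD, the gene of the body shape mutations, was at least 5.64-fold lower in the mutants. Because members differed in direction, the sum over the cluster overlapped between genotypes, with 173 and 71.3 normalized counts in the mutants and 104 and 74.1 in the controls. TwdlK, TwdlJ, TwdlH, TwdlR and TwdlS had no reads.

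**Figure D2:**
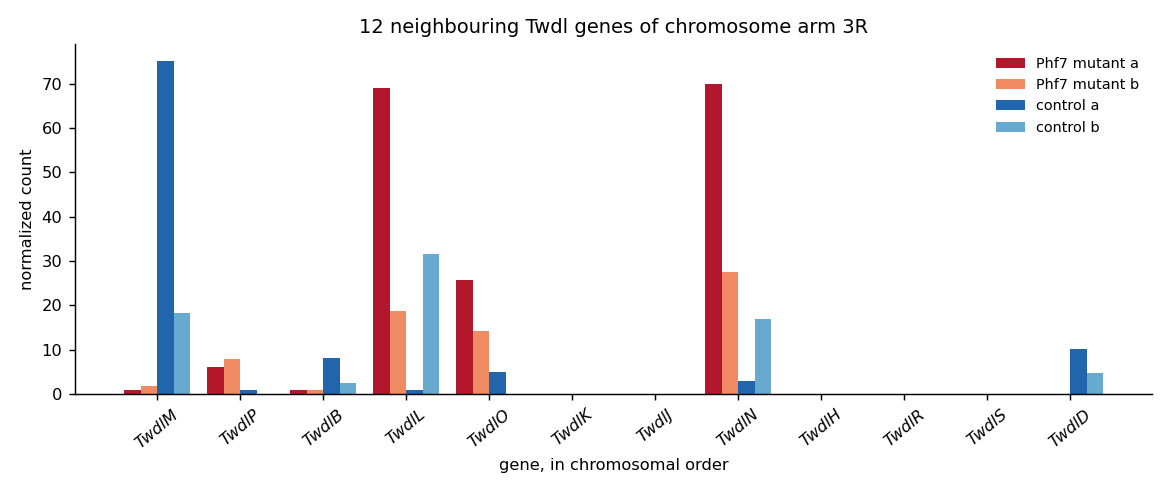
Normalized count of the 12 neighbouring Twdl genes of arm 3R in chromosomal order, with 1 bar for each of mutant a, mutant b, control a and control b and no error bars since each bar is 1 library. TwdlM stood at 0.886 in mutant a and reached 75.2 in control a, while TwdlN reached 70.0 in mutant a and 3.05 in control a.

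Several members of both families had nearly all of their reads in control b. TwdlV (3R:4254708-4255833), second in the family by its mean, had 3.54 and 1.78 normalized counts in the mutants against 12.2 in control a and 375 in control b. Control b thus held 95.5% of its summed level, and the log2 difference of -4.31 carried an SE of 1.80 (limma, adjusted p = 0.858). Its neighbour TwdlG (3R:4248723-4251341) had 4.43 and 15.1 normalized counts in the mutants against 5.08 and 82.6 in the controls, high again in control b only. TwdlF, the third gene of that group, went the other way, with 20 and 6 reads in the mutants against 4 reads in each control. TwdlT (3R:27049220-27051004) had 4.43 and 0 normalized counts in the mutants against 18.3 and 128 in the controls (log2 difference -4.42 ± 1.36, limma, adjusted p = 0.810).

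Control b was likewise the high library of Cpr5C, Cpr23B and Cpr31A. Cpr5C (X:5804677-5805344) had 91 reads in control b and none in any other library. Cpr23B (2L:2838411-2839547) had 5.31 and 0 normalized counts in the mutants against 0 and 177 in the controls, and its log2 difference of -2.41 had an SE of 2.91, the widest among the members tested. Cpr31A (2L:10054213-10055935) had 2.66 and 0.891 normalized counts in the mutants against 5.08 and 93.5 in the controls (log2 difference -3.19 ± 1.51, limma, adjusted p = 0.919). In Cpr23B and Cpr5C control a was at 0, as was at least 1 mutant, so the difference between the controls was as large as that between genotypes. The mean of Cpr5C was at least 41.5-fold lower in the mutants against a floor of 3 reads over both, a bound that rests on control b alone.

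**Figure D3:**
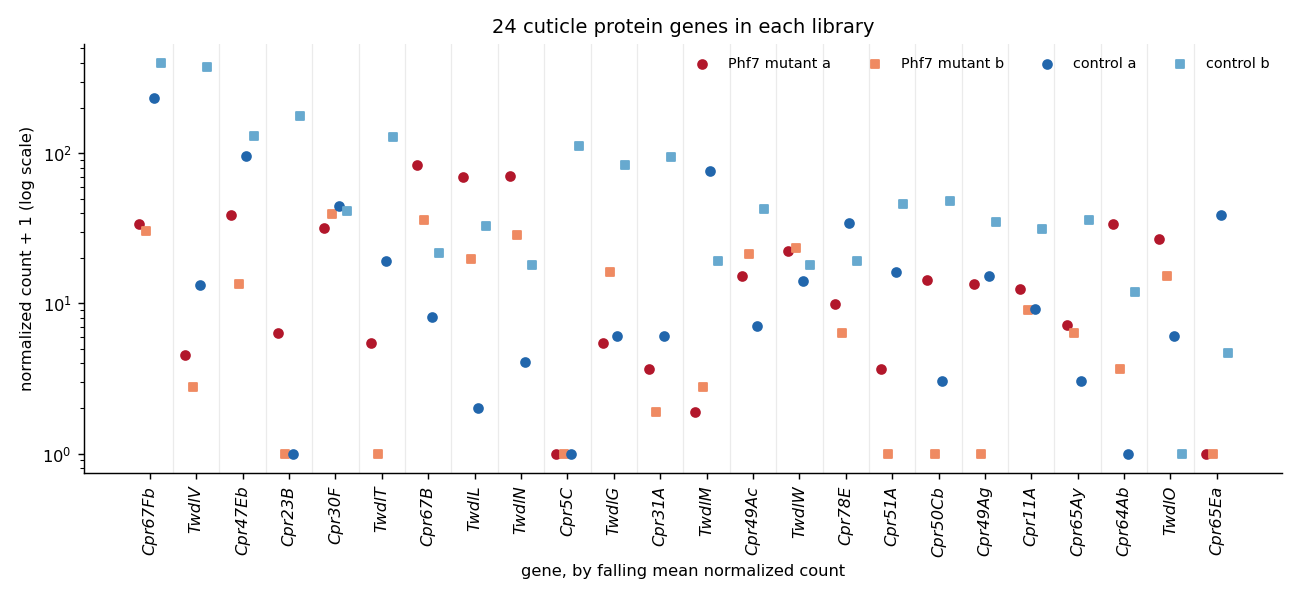
Normalized count + 1, on a log axis, of the 24 cuticle protein genes with a mean of at least 10, ordered by their mean, with 1 point for each library (circles for a, squares for b, reds for Phf7 mutants, blues for controls). Control b is the highest point of 14 of the 24 genes, among them TwdlV at 375 and Cpr5C at 111, and the mutants of Cpr67Fb lie at 32.8 and 29.4, below its controls at 232 and 396.

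A smaller number of members had more reads in the mutants. Cpr67B (3L:9404797-9406174), a Cpr gene that is not part of the Cpr67F group, had 82.4 and 34.7 normalized counts in the mutants against 7.11 and 20.7 in the controls. All values of the mutants were above those of the controls, and the mean was 58.6 ± 33.7 in the mutants and 13.9 ± 9.6 in the controls (SD, n = 2 each), 4.22-fold higher. The log2 difference was 2.04 ± 0.72 (limma, adjusted p = 0.832). Cpr64Ab, with 32.8 and 2.67 normalized counts in the mutants against 0 and 10.9 in the controls, overlapped between genotypes. Its log2 difference of 1.69 was -0.10 without control a. It also lies opposite CG43367, whose reads (374 and 372 in the mutants, 298 and 256 in the controls) were far more even. TwdlW (3R:17141208-17142404) had 21.3 and 22.3 normalized counts in the mutants against 13.2 and 17.0 in the controls, a narrow separation (log2 difference 0.51 ± 0.27, limma, adjusted p = 0.950).

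Some members differed little. Cpr30F (2L:9932272-9933163) had 31.0 and 38.3 normalized counts in the mutants and 43.7 and 40.1 in the controls, with a log2 difference of -0.27 ± 0.27 (limma, adjusted p = 0.985), the smallest SE among the members tested. Its mutants lay below its controls by a narrow margin. Cpr49Ac had 14.2 and 20.5 normalized counts in the mutants and 6.10 and 41.3 in the controls. Its libraries overlapped, and the 2 controls enclosed both mutants.

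Of the 95 genes, 24 had a mean normalized count of at least 10 and were tested, 16 Cpr and 8 Twdl genes. None passed an adjusted p of 0.05 in limma, and none of all 7653 genes tested did (0.0%), nor did any by limma-voom (0.0%). Phf7 itself, the mutated gene, did not pass either (log2 difference -5.16, limma, adjusted p = 0.537). A gene that did not pass is therefore not shown to be unchanged. At an unadjusted p under 0.05, there were 8 of the 24, 7 lower in the mutants (Cpr67Fb, TwdlM, Cpr51A, Cpr78E, Cpr47Eb, Cpr65Ea and TwdlT) and 1 higher (TwdlO), beside 5.87% of all genes tested (3.54% lower and 2.33% higher). Without mutant b the count was 4 and without control a it was 13 over the same 24 genes. With limma-voom 2 of the 24 had an unadjusted p under 0.05, beside 5.11% of all genes tested. Mutant and control values did not overlap for 15 of the 24, which were 11 with lower values in the mutants and 4 with higher values, beside 32.9% of all genes tested (17.5% lower and 15.4% higher). These counts describe the members that had enough reads to be tested and no more: 16 of the 24 reached the mean of 10 through the reads of 1 genotype only, 2 through the mutants and 14 through the controls, so a difference was built into their choice.

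The median log2 difference over the 24 members was -1.69, with 17 below 0 and 7 above 0, beside 0.01 over all genes tested. That median rested on control b. Without that library, 13 members still reached the mean of 10 and their median was 0.68, and over the same 24 genes it was 0.11. Without mutant a the median was -3.18 over 22 members, and without mutant b it was -0.79 over 25. The SE of the log2 difference had a median of 1.08 over the members and of 0.36 over all genes tested, so the libraries of a genotype differed more for these members than for most genes tested, many of which had higher counts.

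**Figure D4:**
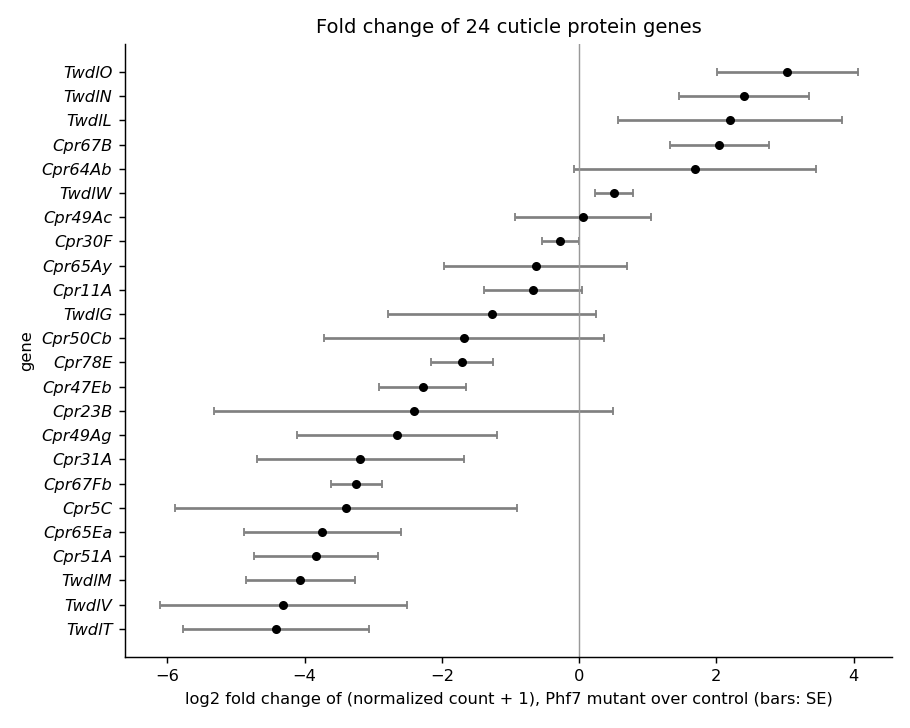
Log2 difference of (normalized count + 1), Phf7 mutant over control, for the 24 cuticle protein genes tested, each point the limma estimate from 2 libraries per genotype and each bar its SE. Genes run from TwdlO (3.03) at the top to TwdlT (-4.42) at the bottom, 7 points lie above 0 and 17 below, and no gene had an adjusted p under 0.05.

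The libraries of 1 genotype often differed. One library held over 75% of the summed level for 9 of the 24 members (37.5%), 7 times control b and 2 times control a, beside 1.59% of all genes tested and 2.58% of the 4035 genes tested that have a mean no higher than that of Cpr67Fb. Control b was the highest library for 14 of the 24 (58.3%), beside 22.4% of all genes tested. These shares are partly set by the minimum mean, since 11 of the 24 members would not reach it without control b. Over all 65 detected members, control b was the highest library for 41.5% and 1 library held over 75% for 32.3%, beside 27.1% and 21.4% of all detected genes with a mean no higher than that of Cpr67Fb. Control b exceeded control a for 19 members (79.2%, beside 49.7%), and mutant a exceeded mutant b for 17 members (70.8%, beside 49.5%). Among genes tested with a mean no higher than that of Cpr67Fb, these 2 shares were 58.9% and 57.1%. Over all 65 detected members they were 60.0% and 53.8%, beside 51.3% and 53.0% of all detected genes up to that mean. Both families had members with most of their level in 1 library, as 5 of 16 Cpr and 4 of 8 Twdl genes tested had over 75% there.

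The 41 detected members with a mean under 10 were not tested. Their libraries separated with lower values in the mutants for 7 (Cpr56F, Cpr62Bc, Cpr65Av, Cpr67Fa1, Cpr72Ea, TwdlB and TwdlD) and with higher values in the mutants for 5 (Cpr49Af, Cpr64Ad, Cpr73D, TwdlF and TwdlP). Among all 3555 detected genes with a mean under 10, 9.25% separated with lower and 13.6% with higher values in the mutants, or 22.8% in all, beside 17.1% and 12.2% of these members. The remaining 29 overlapped. Cpr65Av had 0 reads in both mutants against 8 and 3 in the controls, at least 4.42-fold lower, and Cpr73D had 5 and 2 reads in the mutants against 0 in both controls, at least 1.87-fold higher. Cpr73D lies opposite Ogdh, with a mean of 1407, and Cpr64Ad overlaps CG43367, with a mean of 319, on the same strand. The few reads of Cpr73D and Cpr64Ad are therefore uncertain. Reads were found in all 4 libraries for 24 of the 65 detected members and in 1 library alone for 10. The 30 genes without a read included TwdlE, Cpr92A, Cpr92F, Cpr97Ea and the copies Cpr65Ax1 and Cpr65Ax2. A count of 0 allows up to 3 reads over the 4 libraries, that is a mean normalized count of up to 0.739, and lower levels were not detectable at this depth.

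Cuticle protein genes are clustered on the chromosomes, and 68 of the 95 lie in 15 clusters of genes no more than 20 kb apart. By arm, 6 lie on 2L, 22 on 2R, 35 on 3L, 24 on 3R and 8 on X, and reads were found for 4, 17, 24, 15 and 5 of them in that order. Sums over the Cpr47E cluster of 7 genes were 64.7 and 24.1 normalized counts in the mutants against 112 and 142 in the controls, and most of this was Cpr47Eb. The Cpr49A cluster of 8 genes summed to 51.4 and 28.5 in the mutants and 25.4 and 92.3 in the controls, and the genotypes overlapped. The Cpr64A cluster of 4 genes summed to 44.3 and 8.91 in the mutants and 3.05 and 14.6 in the controls, also with overlap. The Cpr65E cluster of 3 genes summed to 0 and 0.891 in the mutants and 43.7 and 3.64 in the controls, where all of the level in control a beyond 6 reads of Cpr65Ec came from Cpr65Ea.

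Other structural proteins of the cuticle also had members on both sides. Of 40 listed genes, 31 were detected and 15 were tested, and none passed an adjusted p of 0.05 in limma. At an unadjusted p under 0.05 there were 2 with higher and 2 with lower values in the mutants, beside 2.33% and 3.54% of all genes tested. The median log2 difference was -0.04, with 7 above and 8 below 0. Edg91, an ecdysone-dependent cuticle protein gene, had 44 and 0 reads in the mutants against 70 and 311 reads in the controls, the order that TwdlT and TwdlV also had. Lcp65Ag3, a larval cuticle protein gene with near-identical copies that make its reads uncertain, had 275 and 144 reads in the mutants against 54 and 18 reads in the controls (log2 difference 2.31 ± 0.63, limma, adjusted p = 0.758). The chitin-binding protein gene obst-E had 46 and 60 reads in the mutants and 55 and 42 in the controls, with overlap.

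The list of genes for chitin synthesis and organisation also holds chitinase-like growth factor genes, which were far more abundant than the cuticle protein genes. The mean normalized counts of kkv, knk and mmy were 49.1, 71.2 and 89.3, below that of Cpr67Fb. All 21 listed genes were detected, 10 were tested, and none passed an adjusted p of 0.05 in limma. Beside 3.54% of all genes tested, 1 of the 10 had an unadjusted p under 0.05 with lower values in the mutants. That was knk, which organises chitin fibres and had 49 and 66 reads in the mutants against 90 and 75 in the controls (log2 difference -0.84). The median log2 difference of the list was -0.19. Its most abundant members were the chitinase-like growth factor genes Idgf2, Idgf3 and Idgf4, with the authors' means over the 4 libraries of 1710, 1508 and 1022 normalized counts. kkv, the chitin synthase of the epidermis, had 45.2 and 30.3 normalized counts in the mutants against 45.7 and 75.3 in the controls, a narrow separation. The 7 members with a mean under 10 were not tested, and for 6 of them (rtv, verm, exp, Cda4, Cht10 and Cht7) both mutants lay below both controls, beside the 9.25% given above. That share includes the 372 genes with a single read, whose libraries cannot separate. Among the 10 genes tested, 2 (knk and kkv) had both mutants below both controls, beside 17.5% of all genes tested. The chitin deacetylase gene verm had 0 reads in both mutants against 9 and 13 in the controls, and Cda4, of the same enzyme family, had 1 and 0 reads in the mutants against 10 and 8 in the controls.

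Enzymes of cuticle hardening and pigment were all detected where matched (12 of 13 listed genes), and 6 were tested. Ddc, dopa decarboxylase, had 102 and 39 reads in the mutants and 21 and 48 in the controls, and yellow-c had 65 and 26 in the mutants and 16 and 29 in the controls. Pu, which makes a cofactor of tyrosine hydroxylase, had 38.1 and 31.2 normalized counts in the mutants against 43.7 and 40.1 in the controls. Its mutants lay below its controls by a narrow margin. Only ple, tyrosine hydroxylase, had an unadjusted p under 0.05, with 14 and 9 reads in the mutants against 27 and 23 in the controls (log2 difference -1.38 ± 0.32, limma, adjusted p = 0.688), and the median of the list was 0.13. Among 12 regulators of cuticle genes, all detected and 8 tested, the most abundant were Eip75B, ovo and ftz-f1. The ecdysone-response gene Eip75B and ovo had the authors' means of 3011 and 1135 normalized counts. The shavenbaby form of ovo shapes the larval cuticle, but ovo is also among the germ cell markers used here. Counts per gene do not tell its forms apart. The nuclear receptor gene ftz-f1 had 453 and 310 reads in the mutants and 318 and 356 in the controls. Eip74EF, an ecdysone-induced transcription factor gene, was the single regulator with an unadjusted p under 0.05, with 14 and 11 reads in the mutants against 30 and 27 in the controls (log2 difference -1.44 ± 0.27, adjusted p = 0.587 in limma). The median over the regulators tested was -0.48, and no gene of the hardening or regulator lists had an adjusted p under 0.05 in limma. An unadjusted p under 0.05 was thus found for 1 of 6 hardening and 1 of 8 regulator genes, beside 5.87% of all genes tested (3.54% lower). Of the genes in these lists, knk, kkv, ple, Eip74EF and the chitin genes with a mean under 10 were named after their values had been seen.

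Markers of tissues that make cuticle were present in every library. Tracheal markers, all 8 of them detected, summed to 253 and 122 normalized counts in the mutants and 118 and 335 in the controls, and the 7 of 8 epidermal markers with values per library (all were detected, but cora had a mean over 1000) to 471 and 592 in the mutants and 813 and 586 in the controls. The tracheal sum was thus highest in control b and next in mutant a, and the epidermal sum was highest in control a. Most of the epidermal sum came from sinu and kune. Normalized counts of sinu were 178 and 326 in the mutants and 443 and 186 in the controls, and those of kune were 64.7 and 187 and then 266 and 207. By contrast, grh, y and Ddc were highest in mutant a and next in control b, while ple was highest in a control. The weakly expressed mwh was even between mutant a and control a, at 7.09 and 7.11 normalized counts. Of the tracheal list, 5 genes also stand in the lists above, and of the epidermal list 4. The defining markers trh, for tracheae, with 18 and 7 reads in the mutants and 0 and 11 in the controls, and grh, for epidermis, with 87 and 21 in the mutants and 37 and 59 in the controls, were both highest in mutant a. Neither of these sums separated the genotypes.

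Many markers of tissues around the gonad had mutant a above mutant b and control b above control a. This order was present for 12 of 12 muscle, 8 of 8 neuronal, 9 of 10 midgut, 5 of 5 tracheal, 4 of 6 epidermal and 3 of 5 hemocyte markers tested, and for 2 of 8 germ cell and 3 of 6 somatic gonad markers. It was also present for 15 of the 24 cuticle protein genes tested (62.5%), beside 35.9% of all genes tested and 42.6% of those with a mean no higher than that of Cpr67Fb. It was present for 26 of all 65 detected members, beside 32.3% of all detected genes up to that mean, and for 11 of the 41 members under 10 (26.8%).

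The summed levels of these lists leave out markers with a mean over 1000, which have no value per library. Neuronal markers (9 of 9 detected, 8 summed, without CadN) summed to 4658 and 989 normalized counts in the mutants and 623 and 2182 in the controls. Midgut enzymes (12 of 13 detected with gammaTry at 0, 10 summed, without Jon99Fi and alphaTry) summed to 3788 and 610 in the mutants and 167 and 3770 in the controls, and the muscle sums are given above. Hemocyte markers (9 of 9 detected, all summed) came to 402 and 143 in the mutants and 227 and 490 in the controls. In these tissues mutant a and control b were the high libraries. Germ cell markers (12 of 12 detected, 8 summed, without vas, piwi, ovo and tud) summed to 3199 and 3447 in the mutants and 3251 and 3051 in the controls. Somatic gonad markers (12 of 12 detected, 7 summed, without fax, bnb, tj, zfh1 and abd-A) summed to 1985 and 1847 in the mutants and 2494 and 2516 in the controls. Of the fat body markers, Lsp1alpha, Fbp1 and Fbp2 were at 0, and Lsp1beta, Lsp1gamma and Lsp2 together had under 10 normalized counts in each library, but apolpp had the authors' mean of 1059 and no value per library.

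**Figure D5:**
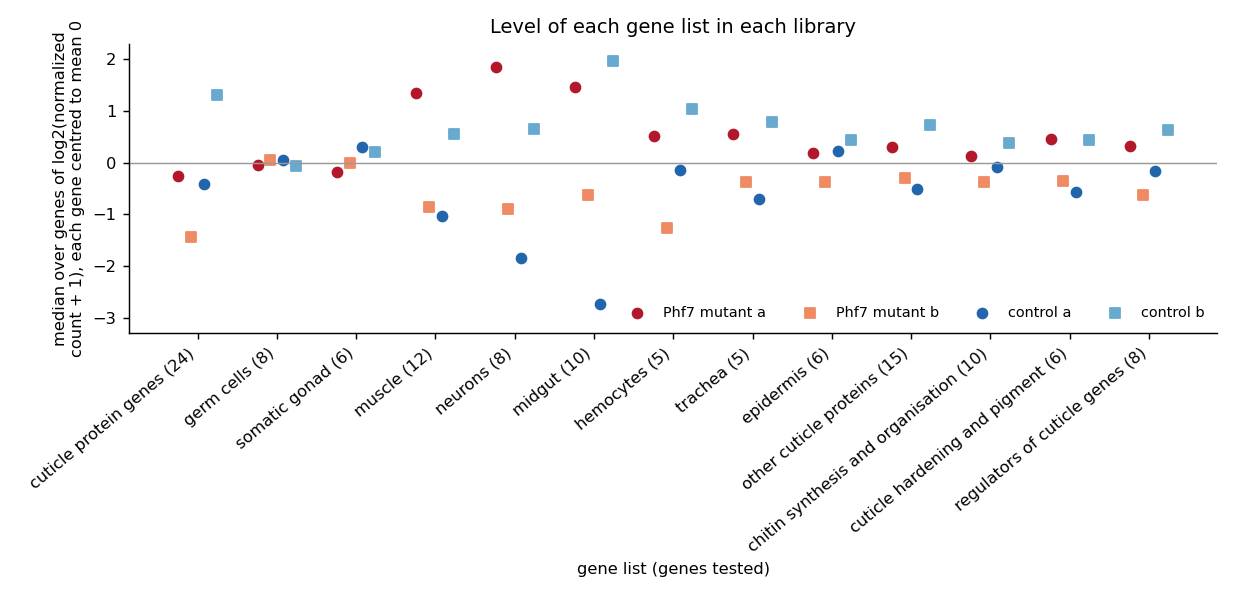
Median over the genes tested of log2(normalized count + 1), each gene centred to a mean of 0 over the 4 libraries, for the cuticle protein genes and each list, with 1 point for each library and no error bars. For the cuticle protein genes mutant a, mutant b and control a lie at -0.26, -1.43 and -0.41 and control b at 1.31, while for the midgut list mutant a and control b lie at 1.46 and 1.98 and mutant b and control a at -0.63 and -2.74.

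The muscle and neuronal sums were higher in mutant a than in control b. The midgut sums were nearly equal there, at 3788 in mutant a and 3770 in control b, and the midgut median was higher in control b. Each of these sums was higher in both mutants than in control a. The sum of the cuticle protein genes was 681 and 344 in the mutants and 749 and 2077 in the controls, lower in mutant a than in control b and lower in both mutants than in control a. Without Cpr67Fb that sum was 648 in mutant a, above the 517 of control a. The tracheal, hemocyte and epidermal sums were also lower in mutant a (253, 402 and 471) than in control b (335, 490 and 586). Compared with control a, both mutants were higher in the tracheal sum and lower in the epidermal sum. Cpr67Fb stood at 32.8 and 29.4 normalized counts in mutants a and b. In the same libraries the muscle sums were 4844 and 1231, the tracheal sums 253 and 122 and the epidermal sums 471 and 592. A fit with muscle, neuron and midgut markers as covariate is given in the last section, and its score holds no tracheal or epidermal marker. The part of the surrounding tissues in the cuticle values was not tested.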

How the data were processed

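RNA of FACS-sorted embryonic gonads was measured in 2 Phf7 mutant and 2 control samples. The authors made 3′-end libraries (QuantSeq), mapped them to dm6 with HISAT2, counted reads with htseq-count and compared genotypes with DESeq2. For program versions, annotation release and strand setting, no value is given in the sources used here. The deposited table lists each gene's normalized read count as a signal that the authors averaged over 4 libraries, and columns of the authors' comparison (the log2 fold change, its standard error, the Wald statistic, p-value and adjusted p). No value of the authors' comparison was used, except that the sign of the deposited log2 fold change (control over mutant) at 372 genes with a single read told which libraries belong to which genotype.

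Each deposited mean is a sum of whole reads weighted by 1 value per library. Whole-number solutions were searched for the 11208 genes with a mean above 0 and up to 1000, and each had exactly 1. Of 1500 decoys, 6 had a solution (0.4%), and 0 of the decoys with means up to 200. Recovered genes hold 17.4% of the total, and 1471 more abundant genes have a mean only. The letters a and b name libraries, since which is replicate 1 is not known.

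The 7653 genes with a mean of at least 10 were tested with limma 3.58.1 (R 4.3.3) on log2(normalized count + 1), Phf7 mutant minus control, 2-sided, with Benjamini-Hochberg adjustment over all of them. Fold changes on this scale understate those of low genes. Alternatives were limma-voom, other pseudocounts, minimum means and size factors, a tissue marker covariate and leaving out each library. Genes were compared without division by length, since 3′-end reads do not scale with it. Scripts were tested on simulated data. Positions are from Ensembl release 115 (BDGP6.54, the coordinates of dm6), and TwdlU was not analysed here.

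The members and lists were chosen with earlier results of these data known. Genes named were Phf7, Cpr67Fb, the 10 members with the highest mean, the 8 smallest p-values in each direction, the 5 with the largest ratio between libraries of a genotype among means of at least 20, members within 20 kb of these, and from each list the 3 highest means and any gene past the adjusted threshold. Other genes named were chosen after their values were seen. The samples are labelled as replicates, and the study's methods call them biological replicates.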

Additional observations from a re-analysis of the deposited data

How the results depend on the processing

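No member passed an adjusted p of 0.05 under any alternative, while 2 of all genes did with a minimum mean of 20. The 8 members at an unadjusted p under 0.05 became 14 of 65 with no filter, 5 of 14 with a minimum mean of 20, 2 by limma-voom and 15 with a score of 30 muscle, neuron and midgut markers as covariate, which leaves 1 residual degree of freedom and reached 12.5% of all genes. Leaving out 1 library gave 4 to 13 (11 without control a), where a lone library is assumed to vary like the others. The median log2 difference of -1.69 was -0.50 with no filter and ranged from -3.18 to 0.68 when 1 library was left out. It reversed without control b, to 0.68 over 13 members and to 0.11 over the same 24 genes, an alternative chosen after the data were seen. The 15 members whose libraries did not overlap became 27 of 65 with no filter and 9 of 14 with a minimum mean of 20, and 13 to 21 with 1 library left out. In these cases fewer or more genes or libraries entered by construction, and other causes were not tested. Among 19 named members and 212 alternatives, 5 reversed. Cpr49Ac gave -0.036 with a pseudocount of 5 and -0.25 with the covariate, and -1.23 to 1.35 with 1 library left out, and Cpr64Ab gave -0.10 to 3.48 with 1 library left out. The lowest adjusted p of a named member was 0.170. Other size factors and pseudocounts kept the direction and the call of each summary count. No paired analysis was possible because the recovered libraries carry no replicate number. Depth limits genes under about 10 normalized counts, and genes over 1000 have no value per library.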
